A study of Rattus norvegicus with 12 samples.

Results

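Rbm3 and Cirbp, the cold-inducible RNA-binding proteins, were taken by gene symbol from an RNA-seq table of rat liver, and they are 2 of its 33744 genes. Both were among the 13687 genes with enough reads to test. The study modelled liver donation after circulatory death and compared ways of keeping the organ before transplantation. Livers came from male Sprague Dawley rats, aged 6 to 8 weeks, and each had 30 min of warm ischemia in the body after cardiac arrest. The HOPE 1 h group (hypothermic oxygenated machine perfusion) then had 3 h of cold storage in HTK preservation solution and 1 h of machine perfusion through the portal vein at 4 °C with oxygenated perfusate. The HMP 1 h group (hypothermic machine perfusion) had the same 3 h and 1 h without oxygenation. The SCS 4 h group (static cold storage) had 4 h of cold storage with no perfusion. The WI 30 min group had the warm ischemia alone and was never kept cold. Each group had 3 livers, so 9 livers were kept cold for 4 h in all and 3 were not. Cooling came together with 4 more hours outside the body and with preservation solution, and these cannot be told apart in this design. There was no liver without warm ischemia.

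CIRBP and RBM3 are small glycine-rich proteins with a single RNA recognition motif. They are the best known mammalian proteins made in response to a modest drop in temperature, and they bind messenger RNAs and affect their stability, translation and polyadenylation. In mouse liver the Cirbp messenger follows the daily rhythm of body temperature, and the protein binds transcripts of clock genes. RBM3 is known from mouse brain for protecting synapses after cooling. CIRBP released from stressed cells acts outside them as an inflammatory signal through Tlr4 and Trem1.

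The promoters are shown because the response of Cirbp to mild cold has been traced, in mouse, to a short promoter motif, the mild cold responsive element TCCCCGCC, which is bound by Sp1. RefSeq promoter windows of the build GRCr8, with 250 bases before and 50 after each gene start, held an entry for both genes. Of these windows, the stretches below lie upstream of every annotated start of the gene, at chr7:10189624-10189725 on the minus strand for Cirbp and chrX:17020655-17020862 on the plus strand for Rbm3. Both read 5′ to 3′ toward the gene, and capitals mark matches to the mild cold responsive element, to the GC box GGGCGG and to the CCAAT box CCAAT on either strand.
Cirbp: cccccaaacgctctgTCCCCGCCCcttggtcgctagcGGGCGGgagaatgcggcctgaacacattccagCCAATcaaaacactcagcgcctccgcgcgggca
Rbm3: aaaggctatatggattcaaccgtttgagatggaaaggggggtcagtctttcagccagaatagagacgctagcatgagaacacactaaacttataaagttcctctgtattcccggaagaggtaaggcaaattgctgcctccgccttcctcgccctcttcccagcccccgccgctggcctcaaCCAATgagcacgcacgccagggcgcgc
The first run of capitals in Cirbp holds the mild cold responsive element and, overlapping its end, a GC box on the other strand. In the whole window of 300 bases, Cirbp had 1 mild cold responsive element, which begins at position -235 from the gene start, 5 GC boxes and 2 CCAAT boxes. Rbm3 had 0, 0 and 1 of these motifs in its window. Of 33469 rat windows of this length, 4.79% held the mild cold responsive element, 33.1% a GC box and 37.5% a CCAAT box. A match is a run of letters and was not tested as a binding site.

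The table places Cirbp (ENSRNOG00000015999) at chromosome 7, 12401207 to 12405022 on the minus strand, and Rbm3 (ENSRNOG00000005387) at chromosome X, 15098904 to 15102340 on the plus strand, in the build Rnor_6.0. Both are annotated as protein coding, and 0 other genes of the table overlap either of them. Both were of middle to upper abundance in these livers. Per length, Rbm3 averaged 11.4 FPKM over the 12 livers, above 71.8% of the tested genes, and Cirbp averaged 8.76 FPKM, above 65.9%. The levels rest on 177 to 638 reads per liver for Rbm3 and 95 to 328 for Cirbp.

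Rbm3 was higher in the cold livers than in the livers that were never cooled, by 2.02-fold in the model fit. Its level in CPM (reads of a gene scaled to a common library total after TMM normalization) was 31.6, 20.3 and 33.5 in the HOPE 1 h livers, 26.8, 20.1 and 19.9 in the HMP 1 h livers, 23.2, 27.1 and 13.4 in the SCS 4 h livers, and 9.98, 11.9 and 13.5 in the WI 30 min livers. The only overlap was SCS 4 h liver 3, whose 13.35 CPM was just under the 13.48 CPM of WI 30 min liver 3. The other 8 cold livers lay above all WI 30 min livers. Group means were 28.5 ± 7.1, 22.3 ± 3.93 and 21.2 ± 7.08 CPM in HOPE 1 h, HMP 1 h and SCS 4 h livers, against 11.8 ± 1.75 CPM in WI 30 min livers (SD, n = 3 each). Per length, these means were 15.4, 12.2 and 11.6 FPKM in the cold groups, against 6.49 FPKM in WI 30 min livers.

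**Figure D1:**
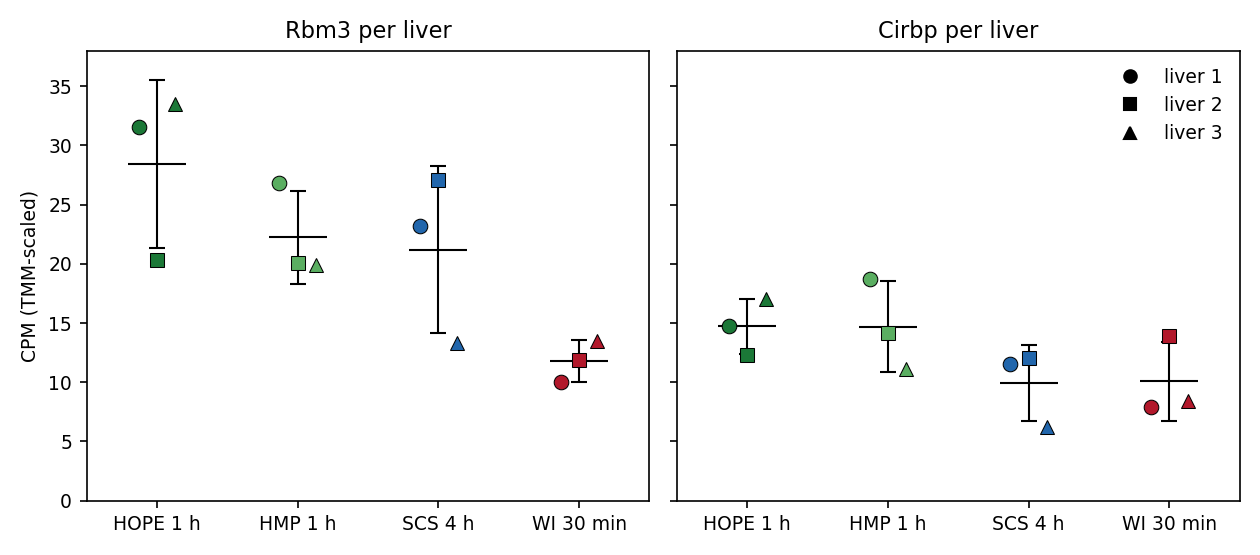
Level of Rbm3 (left) and Cirbp (right) in each of the 12 livers, in CPM on an axis that starts at 0, with 3 livers per group, the group mean as a horizontal line and the SD as a bar. For Rbm3, 8 of 9 cold livers lie above the WI 30 min livers, which reach 13.5 CPM, whereas the Cirbp levels of the groups overlap.

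The contrast of the mean of the cold groups with WI 30 min gave Rbm3 a log2 fold change of 1.01 (SE 0.228, 95% interval 0.52 to 1.51), which is 2.02-fold (1.43 to 2.85). All fits used edgeR's quasi-likelihood test on the counts of the 12 livers, with p-values adjusted over the 13687 genes by Benjamini-Hochberg, and a gene was called under 0.05. The unadjusted p was 0.000813, the 32nd smallest, and the adjusted p was 0.348, so Rbm3 was not called. In this comparison 1 gene, or 0.00731%, was called, and 4.05% of genes were higher at an unadjusted p under 0.05. DESeq2 on the same counts gave a log2 fold change of 1.00 with an adjusted p of 0.00811 and called Rbm3 among 78 genes. Of the 19 other settings, DESeq2 was the only one that called it, and adjusted p-values ran up to 0.947. An exact two-sided permutation test of this single gene over the 220 splits of 9 against 3 livers gave a difference of 0.98 in mean log2 CPM with p = 0.00909, where the smallest p the design allows is 0.00455.

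The comparisons of each cold group with WI 30 min share the WI 30 min livers, so they are not independent of each other. Rbm3 was higher in HOPE 1 h livers by 1.27 on the log2 scale (SE 0.265, 95% interval 0.69 to 1.85), with an edgeR adjusted p of 0.239. All 3 HOPE 1 h livers lay above all 3 WI 30 min livers, as did 8.77% of tested genes. It was higher in HMP 1 h livers by 0.92 (SE 0.265, 95% interval 0.34 to 1.497; adjusted p 0.177), again without overlap, as for 7.57% of tested genes. In SCS 4 h livers the log2 fold change was 0.85 (SE 0.265, 95% interval 0.27 to 1.43, adjusted p 0.962). It was 0.78, 0.63 and 1.09 without SCS 4 h liver 1, liver 2 and liver 3 in turn. EdgeR called Rbm3 in none of the 3 comparisons with WI 30 min, and in each of them it called 0 genes (0.0%). Unadjusted p-values of Rbm3 were 0.000451, 0.0047 and 0.00761 in HOPE 1 h, HMP 1 h and SCS 4 h, each against WI 30 min. At an unadjusted p under 0.05, 1173, 1894 and 653 genes passed in these comparisons, and 4.41%, 7.24% and 2.77% of tested genes passed as higher in the cold group. DESeq2 called Rbm3 in HOPE 1 h (adjusted p 0.00501, among 97 genes) and HMP 1 h (adjusted p 0.0463, among 388 genes) but not in SCS 4 h (adjusted p 0.553, with 15 genes called).

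**Figure D2:**
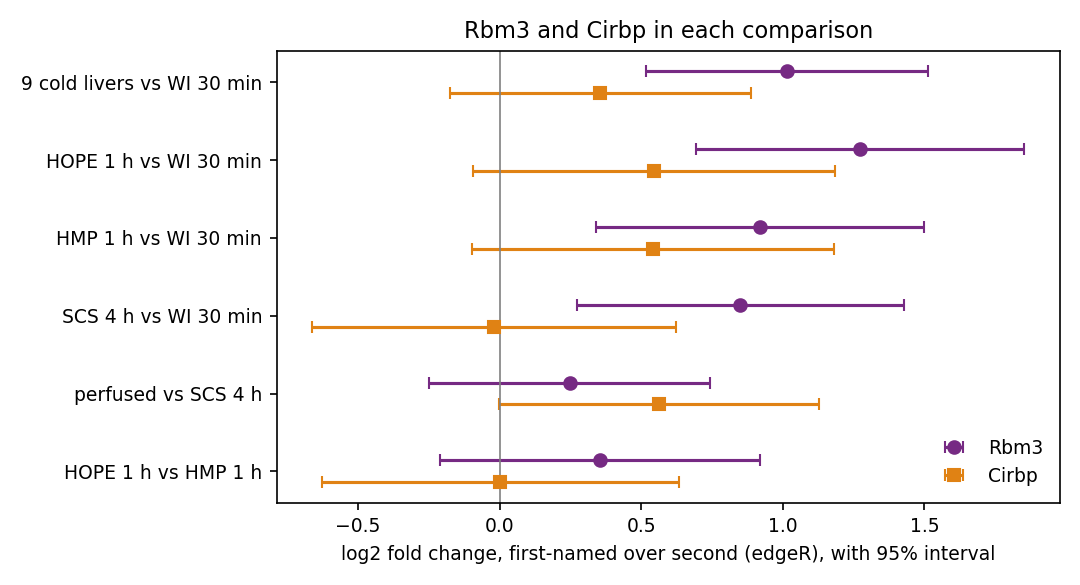
Log2 fold change of Rbm3 (circles) and Cirbp (squares) in 6 comparisons, on an axis of log2 fold change of the first-named livers over the second, with 95% intervals from edgeR. The 4 intervals of Rbm3 against WI 30 min lie above 0, and each interval of Cirbp includes 0.

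Cirbp did not separate the cold livers from the livers that were never cooled. Its levels were 14.8, 12.3 and 17.1 CPM in HOPE 1 h livers, 18.7, 14.2 and 11.1 CPM in HMP 1 h livers, 11.6, 12.04 and 6.22 CPM in SCS 4 h livers, and 7.95, 13.9 and 8.4 CPM in WI 30 min livers. The highest WI 30 min liver, liver 2 at 13.93 CPM, lay above 5 of the 9 cold livers, and the lowest of all 12 was SCS 4 h liver 3. Group means were 14.7 ± 2.36, 14.7 ± 3.83 and 9.94 ± 3.23 CPM in HOPE 1 h, HMP 1 h and SCS 4 h livers, against 10.1 ± 3.33 CPM in WI 30 min livers (SD, n = 3 each). Per length these were 10.3, 10.5, 7.03 and 7.22 FPKM.

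The log2 fold change of Cirbp in the 9 cold livers over WI 30 min was 0.36 (SE 0.244, 95% interval -0.18 to 0.89), with an edgeR adjusted p of 0.734. This interval runs from a level 0.885 times that of WI 30 min livers to one 1.85 times it. The exact permutation test gave a difference of 0.36 in mean log2 CPM with p = 0.259. It depended on single livers, since without SCS 4 h liver 3 the difference was 0.49 with an exact p of 0.0485. In the model the log2 fold change was 0.66 without WI 30 min liver 2 and 0.21 without WI 30 min liver 1. Against WI 30 min, the log2 fold changes of Cirbp were 0.54 in HOPE 1 h (SE 0.292; adjusted p 0.622), 0.54 in HMP 1 h (SE 0.293; adjusted p 0.432) and -0.02 in SCS 4 h (SE 0.294; adjusted p 1.0). The sign in SCS 4 h rested on single livers, at 0.28 without WI 30 min liver 2 and 0.23 without SCS 4 h liver 3.

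Counting error alone was small beside the distance between some livers of the SCS 4 h group. For Cirbp, the exact 95% Poisson interval was 5.03 to 7.6 CPM in SCS 4 h liver 3 and 10.0 to 13.2 CPM in SCS 4 h liver 1. For Rbm3 the same livers had intervals of 11.6 to 15.3 and 21.0 to 25.5 CPM. These intervals cover counting error only, and both genes were lowest in liver 3 among the SCS 4 h livers.

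Ordered by mean level, Rbm3 ran HOPE 1 h, HMP 1 h, SCS 4 h and WI 30 min, and the differences between neighbours within the cold groups were inside the spread between livers. Perfused livers (HMP 1 h and HOPE 1 h) over SCS 4 h gave Rbm3 a log2 fold change of 0.25 (SE 0.227, 95% interval -0.25 to 0.74; edgeR adjusted p 0.658). Without SCS 4 h liver 3 it was 0.00052, and without SCS 4 h liver 2 it was 0.46. HOPE 1 h over HMP 1 h, the comparison of perfusion with and without oxygen, gave 0.35 (SE 0.259, 95% interval -0.21 to 0.92; adjusted p 0.81).

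For Cirbp the order was HOPE 1 h, HMP 1 h, WI 30 min and SCS 4 h, with the first pair and the last pair each at nearly the same mean. Perfused livers over SCS 4 h gave 0.56 (SE 0.259, 95% interval -0.0013 to 1.13, edgeR adjusted p 0.349). The value was 0.32 without SCS 4 h liver 3 and 0.72 without SCS 4 h liver 2. HOPE 1 h over HMP 1 h gave 0.0025 (SE 0.290, 95% interval -0.63 to 0.63; adjusted p 1.0). EdgeR called 21 genes (0.153%) in perfused livers over SCS 4 h and 0 genes (0.0%) in HOPE 1 h over HMP 1 h, where 1024 genes had an unadjusted p under 0.05 and DESeq2 called 15. A test for any difference between the 4 groups gave adjusted p-values of 0.212 for Rbm3 and 0.502 for Cirbp. That test called 0 genes (0.0%) by edgeR, with 1690 at an unadjusted p under 0.05, and 566 by DESeq2.

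The ratio of the pair within a liver removes the library total, and it was higher in the cold livers. Rbm3 counts stood to Cirbp counts at 2.14, 1.65 and 1.96 in HOPE 1 h livers, 1.43, 1.41 and 1.79 in HMP 1 h livers, 2.01, 2.25 and 2.15 in SCS 4 h livers, and 1.26, 0.852 and 1.60 in WI 30 min livers. WI 30 min liver 3 lay among the cold livers and WI 30 min liver 2 was the only liver with more Cirbp than Rbm3 counts. Per length, the mean ratio was 1.48 ± 0.191, 1.19 ± 0.165 and 1.65 ± 0.095 in HOPE 1 h, HMP 1 h and SCS 4 h livers, against 0.954 ± 0.29 in WI 30 min livers (SD, n = 3 each). The mean log2 ratio was 0.62 higher in the 9 cold livers (exact two-sided permutation p = 0.0136, 1 of 3 tests of this kind). Without WI 30 min liver 2 the difference was 0.38 with an exact p of 0.0909. Without WI 30 min liver 1 it was 0.66 with an exact p of 0.0545, a larger difference tested over 55 splits in place of 220.

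**Figure D3:**
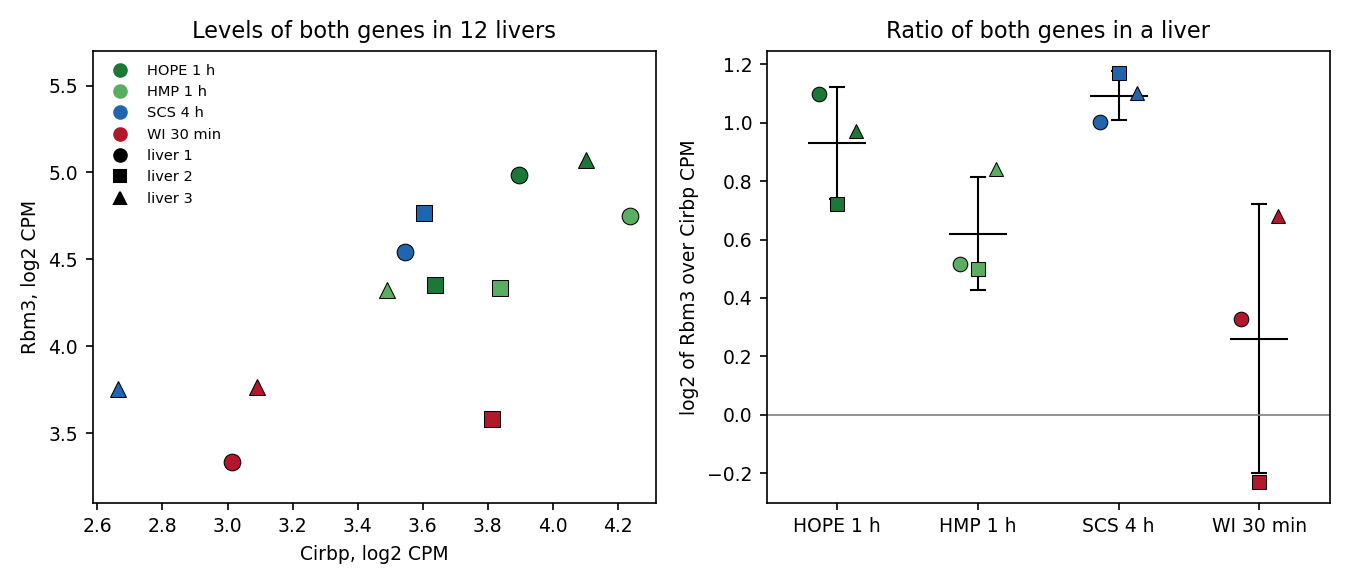
Left, log2 CPM of Rbm3 against log2 CPM of Cirbp, with 1 point per liver. Right, log2 of the ratio of Rbm3 to Cirbp CPM in each liver, with the group mean as a line and the SD as a bar (n = 3), where 0 means equal CPM and WI 30 min liver 2 lies below it at -0.23.

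Livers with more Cirbp had more Rbm3. Over the 12 livers Pearson's r of the log2 CPM was 0.716 (permutation p = 0.00884, adjusted p = 0.0177 over 6 such values) and Spearman's rho was 0.692 (permutation p = 0.0154, adjusted p = 0.0231). Without SCS 4 h liver 3 and HMP 1 h liver 1, the livers farthest from the median of Cirbp, r was 0.704 (permutation p = 0.0228, adjusted p = 0.0274) and rho was 0.673. On values centred on the group means, r was 0.766 (permutation p = 0.00397, adjusted p = 0.0177) and rho was 0.755. The centred values were permuted freely across groups, which takes no account of the group means removed, so this p is likely too small. Both genes come from the same libraries, and other genes were closer to each of them. Ranks were taken among genes with a symbol and a mean of at least 5 CPM. Rbm3 stood 136th by r with Cirbp, and Cirbp stood 80th by r with Rbm3. The number of genes ranked is not given here, so these ranks do not show whether the pair was unusually close.

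For Rbm3 the 5 highest r over the 12 livers, among genes with a symbol and a mean of at least 5 CPM, were RT1-T24-3 (0.898), Hnrnpa1 (0.89), Rtp4 (0.859), Lsm8 (0.857) and Oas1a (0.852). Rtp4 and Oas1a are interferon-induced genes, RT1-T24-3 is an MHC class I gene, and Hnrnpa1 and Lsm8 encode a splicing regulator and a U6 snRNA-binding protein. Oas1a, an oligoadenylate synthetase that senses double-stranded RNA, was at 25.6, 6.28 and 20.1 CPM in HOPE 1 h livers, 12.2, 7.0 and 11.5 CPM in HMP 1 h livers, 6.22, 5.78 and 6.48 CPM in SCS 4 h livers, and 1.8, 0.75 and 2.36 CPM in WI 30 min livers. All 9 cold livers lay above the WI 30 min livers, as for 0.935% of tested genes, with a log2 fold change of 2.64 (SE 0.452) and an edgeR adjusted p of 0.225. Rtp4 averaged 18.9 CPM in cold livers and 5.03 CPM in WI 30 min livers, and RT1-T24-3 averaged 9.68 CPM in cold livers and 3.22 CPM in WI 30 min livers. Hnrnpa1 and Lsm8 differed less, at 59.1 and 7.38 CPM in cold livers and 49.3 and 6.34 CPM in WI 30 min livers. All 5 genes were picked for their r with Rbm3, itself higher in cold livers. Their own levels in cold livers over WI 30 min are therefore not independent of that choice. Both RT1-T24-3 and Oas1a belong to families of near-identical genes, between which reads may be split.

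For Cirbp the closest genes were Zfp219 (r = 0.891), Map4 (0.89), Asxl1 (0.882), Numa1 (0.867) and Ywhah (0.866), which encode a zinc finger protein, a microtubule-associated protein, a chromatin regulator, a spindle pole protein and a 14-3-3 protein. Their log2 fold changes in cold livers over WI 30 min were 0.07 to 0.25, against 0.36 for Cirbp. These correlations describe 12 livers that share 4 groups and carry no test.

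Hepatocyte markers were high in every liver, with the 10 markers summing to between 153100 and 235400 CPM. The summed level of markers of other liver cells was higher in the cold livers, although edgeR called 0 of these 31 markers. The 31 tested markers of Kupffer cells, sinusoidal endothelial cells, stellate cells and bile duct cells summed to 1324 to 2748 CPM in HOPE 1 h, 1364 to 3340 CPM in HMP 1 h and 1435 to 1607 CPM in SCS 4 h livers, against 1189 to 1289 CPM in WI 30 min livers. These sums did not overlap, but the mean centred log2 CPM of the same markers did, at -0.36 in HOPE 1 h liver 1 against -0.51 to -0.25 in WI 30 min livers. All 10 Kupffer cell and macrophage markers were on the higher side in cold livers (median log2 fold change 0.67), as were all 8 sinusoidal endothelial markers (0.52), 7 of 8 stellate markers (0.32) and all 5 bile duct markers (0.34). At an unadjusted p under 0.05, 4 of 10 Kupffer cell, 1 of 8 endothelial, 1 of 8 stellate and 0 of 5 bile duct markers were higher, against 4.05% of all tested genes. The 4 erythroid markers were on the lower side (median -1.66, 0 called), at 580.9 to 863.3, 125.7 to 1232 and 253.2 to 919 CPM in HOPE 1 h, HMP 1 h and SCS 4 h, against 1771 to 2429 CPM in WI 30 min livers. All 4 had an unadjusted p under 0.05 in edgeR, against 3.91% of all tested genes on the lower side. The part of residual blood in these levels was not tested. Of the markers, 0 were at a count of 0 in all livers, and Spp1 was at 0 in at least 1. In bulk tissue, fewer cells of a type and less RNA per cell cannot be told apart. The part of these cells in the levels of Rbm3 and Cirbp was not tested. Without HMP 1 h liver 1 and HOPE 1 h liver 3, which had the highest sums, the log2 fold changes in cold livers over WI 30 min were 0.92 for Rbm3 (SE 0.232) and 0.24 for Cirbp (SE 0.246). The cold livers that remained still summed to 1324 to 1744 CPM, above the WI 30 min livers. This fit therefore cannot separate the cell mix from the levels of the members. HMP 1 h liver 1 also stood apart in its mitochondrial share, 18.7% of counts against 4.79% to 10.2% in the other livers. With mitochondrial genes left out of the totals, Rbm3 and Cirbp gave 1.00 and 0.34.

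Genes that act with or beside the members were read from lists of pathway genes. None of their genes was called by edgeR in cold livers over WI 30 min, so the genes named from them were chosen after their values were seen. The splicing kinases and SR proteins, which set temperature-dependent splicing in other systems, stayed close to 0 in the mean of the cold groups. Of 22 listed genes 20 were tested, 13 were on the higher and 7 on the lower side, and their log2 fold changes ran between -0.28 and 0.27 with a median of 0.04, against a median of 0.01 over all tested genes. The Clk kinases, which phosphorylate SR proteins, lay at 0.14 (Clk1), 0.02 (Clk2), 0.08 (Clk3) and 0.06 (Clk4). Hnrnph1, a splicing regulator, was the only gene of this list with an unadjusted p under 0.05, which is 1 of 20 and near the share over all tested genes (4.05% higher and 3.91% lower). It was at 52.2, 50.4 and 52.5 CPM in HOPE 1 h, 44.2, 46.8 and 57.4 CPM in HMP 1 h and 42.8, 42.0 and 47.1 CPM in SCS 4 h livers, against 39.9, 39.7 and 40.6 CPM in WI 30 min livers. All 9 cold livers lay above the WI 30 min livers by a small margin, as for 0.935% of tested genes, with a log2 fold change of 0.27 (SE 0.0934) and an edgeR adjusted p of 0.52. The cold groups were not alike in this list. Its mean centred log2 CPM was 0.0535 to 0.122 in HOPE 1 h, -0.05 to 0.0356 in HMP 1 h and -0.111 to -0.0284 in SCS 4 h livers. In WI 30 min livers it was -0.0634 to 0.03.

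The relatives of the members, the Rbmx family and the cold shock domain proteins, lay on both sides of 0. Of 12 tested genes 7 were on the higher and 5 on the lower side, with a median of 0.01. Rbmx, the X-linked relative with a similar RNA recognition motif, lay at 0.25 (SE 0.214). Ybx3, a cold shock domain protein that represses translation, lay on the other side, at 50, 53.0 and 63.8 CPM in HOPE 1 h, 67.7, 29.7 and 58.6 CPM in HMP 1 h and 51.0, 55.6 and 50.7 CPM in SCS 4 h livers, against 105.0, 82.5 and 77.4 CPM in WI 30 min livers. Every cold liver lay below every WI 30 min liver, as for 0.563% of tested genes. The log2 fold change was -0.72 (SE 0.19), with an edgeR unadjusted p of 0.00249, under 0.05 as for 3.91% of genes on the lower side, and an adjusted p of 0.416.

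Of the 11 reported targets and modifiers, 4 were on the higher and 7 on the lower side, with a median of -0.06. Clock, whose messenger CIRBP binds in mouse cells, averaged 52.2 ± 10.2 CPM in the 9 cold livers and 65.9 CPM in WI 30 min livers (log2 fold change -0.35, SE 0.138, edgeR adjusted p 0.602). Txn1, the thioredoxin whose messenger CIRBP binds in stressed human cells, lay at 0.03, and Rpa2, another reported target, at 0.22. Atr, a kinase of the DNA damage response, lay at -0.35 (SE 0.123, adjusted p 0.532). Of 4 receptor genes reported for CIRBP outside cells, Il6r and Tlr4 were tested, at 0.39 (SE 0.419) and 0.44 (SE 0.39).

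**Figure D4:**
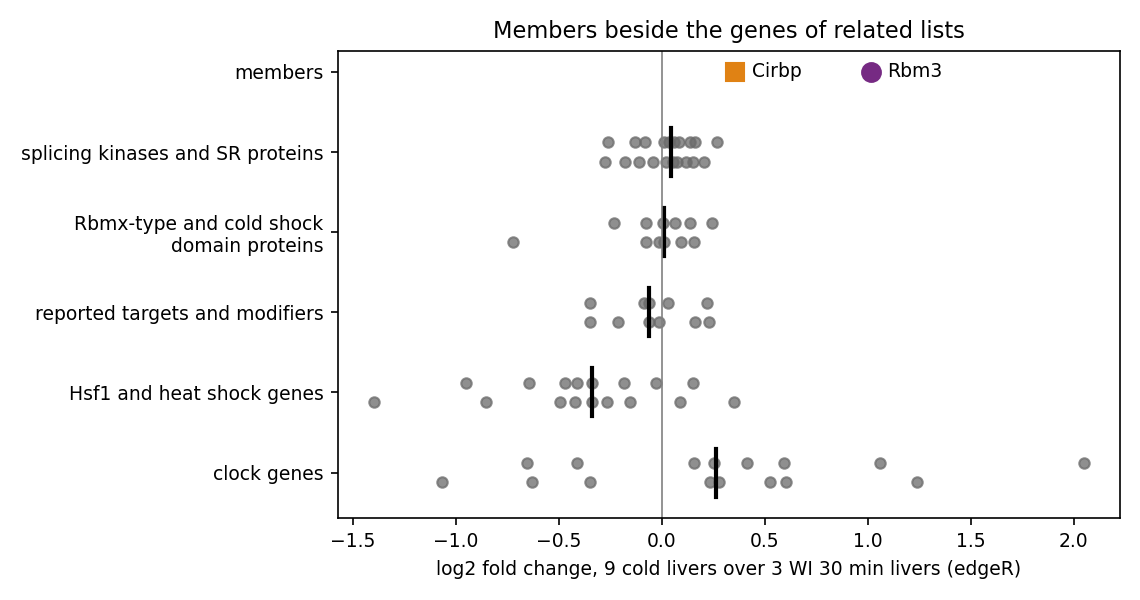
Log2 fold change of Rbm3 and Cirbp and of each tested gene of 5 lists (grey points, black line at the list's median) in the 9 cold livers over the 3 WI 30 min livers, from edgeR. The points of the splicing list lie between -0.28 and 0.27, and those of the heat shock list mostly below 0, with a median of -0.34.

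Heat shock genes, the counterpart of the cold-inducible genes, had a median on the lower side in both perfused groups but not in the SCS 4 h group. Over the mean of the cold groups, 14 of 17 tested genes of the Hsf1 list were on the lower side against WI 30 min, with a median log2 fold change of -0.34, and 7 had an unadjusted p under 0.05, as for 3.91% of all tested genes on the lower side. The cold groups differed in this median. Over WI 30 min, HOPE 1 h livers had a median of -0.39 and HMP 1 h livers one of -0.84. SCS 4 h livers, cold for the same 4 h, had one of 0.11, with 13 of 17 genes on the higher and 4 on the lower side. At an unadjusted p under 0.05, 5, 11 and 1 of the 17 were lower in HOPE 1 h, HMP 1 h and SCS 4 h, and 0 were higher. In these comparisons 1173, 1894 and 653 of 13687 genes passed in either direction. Per liver, the mean centred log2 CPM of the list was -0.435, 0.0598 and 0.137 in HOPE 1 h livers. These values overlapped the 0.114 to 0.439 of WI 30 min livers, whereas those of HMP 1 h livers (-0.606 to -0.228) did not. HOPE 1 h over HMP 1 h gave a median of 0.37, with 13 of 17 genes on the higher and 4 on the lower side. At an unadjusted p under 0.05, 6 were higher and 0 lower, where 1024 of 13687 genes passed in either direction. In perfused livers over SCS 4 h, a comparison without WI 30 min livers, the median was -0.64 against 0.04 over all tested genes, 14 of 17 genes were on the lower side, and 11 had an unadjusted p under 0.05, as for 9.08% of all tested genes on the lower side. Hsp90aa1, the inducible cytosolic Hsp90, was at 14, 18.5 and 12.4 CPM in HOPE 1 h, 3.43, 4.0 and 12.4 CPM in HMP 1 h and 13.6, 14.6 and 12.3 CPM in SCS 4 h livers, against 25.6, 22.2 and 39.0 CPM in WI 30 min livers. Each of the 9 cold livers lay below the WI 30 min livers, as for 0.563% of tested genes, with a log2 fold change of -1.40 (SE 0.3) and an edgeR adjusted p of 0.333.

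The clock list, of which 16 of 18 genes were tested, varied widely within groups. The median log2 fold change was 0.26, with a range from -1.07 for Arntl to 2.05 for Ciart, and 11 genes were on the higher and 5 on the lower side. Those on the lower side were Arntl, Clock, Npas2, Nfil3 and Cry1. Those on the higher side included Nr1d1, Nr1d2, Dbp, Tef, Per1, Per2 and Per3. The median and the mean score of the list pool both sides and so describe neither side alone. At an unadjusted p under 0.05, 0 were higher and 3 were lower, against 4.05% and 3.91% of all tested genes. The 3 were Cry1 (-0.63), Nfil3 (-0.65) and Clock (-0.35). The cold groups differed in these counts. Over WI 30 min, 5 were higher and 3 lower in HOPE 1 h, where 1173 of 13687 genes passed in either direction. The counts were 0 and 0 in HMP 1 h (1894 genes passed) and 0 and 4 in SCS 4 h (653 genes passed). Nr1d1, a repressor of the clock loop, was at 107.0, 128.0 and 89.8 CPM in HOPE 1 h, 28.6, 40.9 and 154.0 CPM in HMP 1 h and 75.5, 74.7 and 81.6 CPM in SCS 4 h livers, against 7.67, 22.9 and 77.8 CPM in WI 30 min livers. Arntl, its target, was at 19.9, 4.74 and 1.78 CPM in HOPE 1 h, 36.2, 34.0 and 13 CPM in HMP 1 h and 10.8, 8.49 and 6.35 CPM in SCS 4 h livers, against 32.2, 37.9 and 10.6 CPM in WI 30 min livers. Livers of the HMP 1 h group and of the WI 30 min group stood far apart in both genes. The hour at which each liver was taken is not stated in the labels or methods, and the part of the clock in the levels of Cirbp and Rbm3 was not tested.

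**Figure D5:**
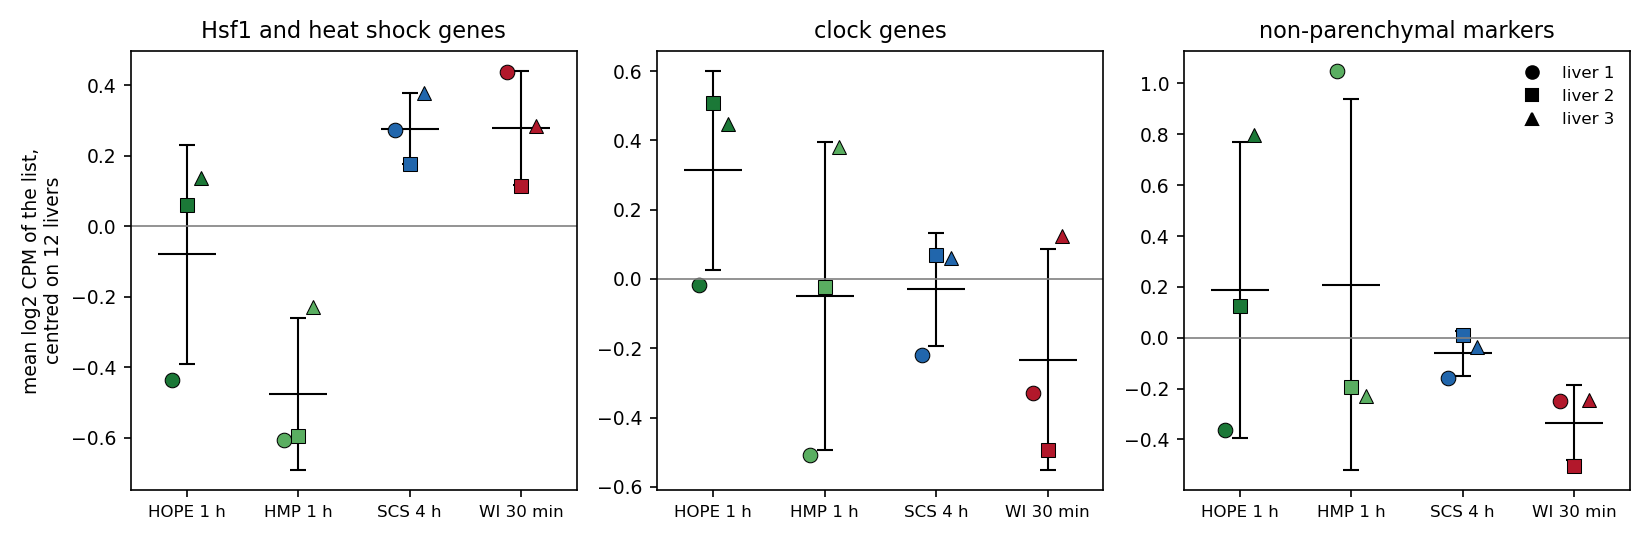
Mean log2 CPM over the tested genes of the heat shock list, the clock list and the non-parenchymal markers in each liver, centred on the 12 livers, with the group mean as a line and the SD as a bar (n = 3). Heat shock scores are -0.435 to 0.137 in HOPE 1 h, -0.61 to -0.23 in HMP 1 h and 0.18 to 0.38 in SCS 4 h livers. They are 0.11 to 0.44 in WI 30 min livers. Clock scores span -0.51 to 0.38 within HMP 1 h livers, and they pool genes that were higher and genes that were lower in cold livers.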

How the data were processed

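RNA-seq was done on the tissue of 12 rat livers, 3 per group, with 1 library each. The authors aligned reads with Hisat2, assembled them with StringTie, and deposited a raw count of reads for every gene and liver. The build was Rnor_6.0 according to the submitters' processing notes. Neither the counting tool nor its use of strand is stated in the labels or methods. Deposited FPKM values were used for levels per length and, as log2(FPKM + 1), for an alternative. The log2 fold changes, p-values and means of the authors' own comparisons stand in the same table and were left aside. Each of the 24 columns of values per liver was assigned through its name, with 0 left over.

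Counts (15262961 to 18343167 per liver) were fitted in edgeR 4.0.16 in R 4.3.3, with TMM, filterByExpr (13687 of 33744 genes) and 1 model with a mean per group. Log2 CPM for relations and permutation tests were computed with a prior count of 2. Permutation tests enumerated all splits in Python 3.11.15, relations drew 100000 resamples, and correlations and Poisson intervals came from scipy 1.17.1. Alternatives were DESeq2 1.42.0, RLE scaling, no filter, no mitochondrial genes, a block for the replicate number, a fit to the compared groups alone, FPKM in limma 3.58.1, a prior count of 0.5 and leaving out each liver. A fit without both HMP liver 1 and HOPE liver 3, and an unadjusted p under 0.05, were added after seeing the data. The pipeline was tested on simulated data. The members, the lists and the tests were chosen with earlier results of these data known.

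Both members are given in full. Listed genes were to be named if called, up to 4 per list, and otherwise by counts, median and range. The 5 genes most like each member by Pearson's r were named. Of the listed genes, 4 had no row under that symbol. The labels number the livers without saying that each came from its own animal, so p-values measure the spread between these samples.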

Additional observations from a re-analysis of the deposited data

Results flagged for a closer look

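Cirbp in SCS 4 h liver 3, at 2.66 on the log2 CPM scale (6.22 CPM), lay far below the other cold livers. Its gap to the next lowest cold liver was 0.525 of the range of the 9 cold livers, above Dixon's 95% critical value for 9 values. Chance flags about 1 in 20 groups of values, and Cirbp, Rbm3 and their ratio were each checked. The critical value is for values of 1 group. The 9 livers here came from HOPE 1 h, HMP 1 h and SCS 4 h, with mean Cirbp levels of 14.7, 14.7 and 9.94 CPM. Rbm3 was also lowest in that liver among the cold livers, with a gap of 0.436 of the range, below the critical value.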

How the results depend on the processing

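Rbm3 stayed higher in cold livers over WI 30 min in each of the 19 other settings (log2 fold change 0.88 to 1.12), but DESeq2 called it (1.00; 0.92 in HMP 1 h and 1.25 in HOPE 1 h over WI 30 min) where edgeR did not. Cirbp was called in none of the settings. Its log2 fold change in HOPE 1 h over HMP 1 h, 0.0025, turned to -0.018 with DESeq2, -0.018 with RLE scaling, -0.018 without the filter, -0.016 without mitochondrial genes, -0.0041 with only the groups compared and -0.00029 with FPKM. Leaving out 1 liver gave -0.18 to 0.20 there, -0.18 to 0.28 in SCS 4 h over WI 30 min, exact-test differences in cold livers of 0.22 to 0.62 for Cirbp, and 0.38 to 0.83 for the ratio.

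Genes called, in the order cold over WI 30 min, SCS 4 h over WI 30 min, HMP 1 h over WI 30 min, HOPE 1 h over WI 30 min, perfused over SCS 4 h, HOPE 1 h over HMP 1 h and any difference, were 1, 0, 0, 0, 21, 0 and 0 with edgeR and 78, 15, 388, 97, 486, 15 and 566 with DESeq2. Without the filter, 1, 19, 8, 43 and 28 were called for SCS 4 h, for HMP 1 h, for HOPE 1 h, for perfused livers and for any difference. Without mitochondrial genes, 4 were called in perfused livers, and with only the groups compared, 2 in HOPE 1 h. Without both HMP 1 h liver 1 and HOPE 1 h liver 3, 3, 46, 1 and 11 were called in cold, HMP 1 h, HOPE 1 h and any. Leaving out 1 liver gave 0 to 3, 0 to 1, 0 to 29, 0 to 4, 0 to 37, 0 to 2 and 0 to 16 calls in the same order. In their deviations from the group means, same-numbered livers of different groups had r of -0.189 to 0.143 (median 0.0334). Livers of other numbers had r of -0.225 to 0.329 (median -0.00752). Of the 12 livers, 5 correlated best with a liver of their own number, a count that was not tested. With the replicate number as a block, calls were 0 in cold, 1 in SCS 4 h, 1 in HOPE 1 h and 0 in perfused livers, and Rbm3 in cold livers had 1.00 (adjusted p 0.376). With 3 livers per group, the interval of Cirbp in cold livers, -0.18 to 0.89, leaves its direction undecided.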
